A study of Mus musculus with 2 samples.

Results

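Genes whose platform symbol begins with Srsf, Hnrnp, Sf3a, Sf3b, Snrp or Mbnl were examined in the mouse striatum with and without the dopamine D2 receptor gene Drd2. The prefixes gave 50 of the 18193 genes measured by a probe set paired with that gene alone, through 150 probe sets. A probe set is a group of short probes read as 1 signal. The wild-type sample and the Drd2-/- sample were naïve C57BL/6 males aged 2 months. Each genotype had 1 Affymetrix array of hand-dissected striatal RNA, so no value has a replicate error, no difference was tested, and every ratio compares these 2 RNA samples. The sources used here do not say whether a sample was 1 animal or a pool, nor how the Drd2-/- allele was made. Drd2 itself read 3235 units in the array labelled wild type, where it was called present, and 27.4 units in the array labelled Drd2-/-, where it was called absent. Directions follow those labels. In the authors' comparison table the headings swap the genotypes of these signals. By those headings the array where Drd2 was called absent, at 27.4 units, would be the wild type, and every sign given here would turn.

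Splicing removes introns from precursor messages. SR proteins (the Srsf genes) bind exons through RNA recognition motifs and recruit the splicing machinery through domains rich in arginine and serine. The hnRNPs coat nascent RNA, often silence exons, and also act in RNA export, transport and decay. The Snrp genes encode the Sm proteins, which form a ring on the spliceosomal small nuclear RNAs, and proteins particular to the U1 or U2 particle. The SF3a and SF3b complexes bind the branch point as parts of the U2 particle, and muscleblind-like (Mbnl) proteins set the developmental switch of many exons in brain and muscle. Many SR protein and hnRNP genes control their own messages through alternative exons that trigger decay, so 1 gene can give several transcripts that different probe sets may read differently.

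The 250 bases before the annotated transcript start were read for the members from RefSeq (GRCm38.p6), which held 62 such windows for 45 of the 50 genes. Windows of 4 genes whose detected probe sets all read higher in the Drd2-/- array (Srsf3, Srsf10, Sf3b1 and Mbnl2) are shown first, and that of Snrpd3, whose detected probe sets all read lower, last. Capitals mark matches, on either strand, to GGGCGG (the Sp/KLF motif), CCGGAAG (ETS), CCAAT (NF-Y), TGCGCA (an NRF1 motif), TGACGT (CREB) or TATAAA (the TATA box), which may overlap each other.
Srsf3 upstream window, chr17:29032410-29032659, + strand: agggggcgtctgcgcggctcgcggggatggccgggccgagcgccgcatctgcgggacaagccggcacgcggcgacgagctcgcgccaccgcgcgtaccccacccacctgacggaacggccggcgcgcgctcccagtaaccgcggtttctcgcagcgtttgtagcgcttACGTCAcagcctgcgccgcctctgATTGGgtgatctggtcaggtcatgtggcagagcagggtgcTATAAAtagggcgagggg
Srsf10 upstream window, chr4:135855821-135856070, + strand: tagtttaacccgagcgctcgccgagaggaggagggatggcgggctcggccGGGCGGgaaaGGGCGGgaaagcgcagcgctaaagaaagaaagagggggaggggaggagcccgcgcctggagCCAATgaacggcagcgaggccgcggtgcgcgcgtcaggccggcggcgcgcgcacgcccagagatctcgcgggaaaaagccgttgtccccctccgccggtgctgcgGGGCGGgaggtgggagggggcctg
Sf3b1 upstream window, chr1:55027479-55027728, - strand: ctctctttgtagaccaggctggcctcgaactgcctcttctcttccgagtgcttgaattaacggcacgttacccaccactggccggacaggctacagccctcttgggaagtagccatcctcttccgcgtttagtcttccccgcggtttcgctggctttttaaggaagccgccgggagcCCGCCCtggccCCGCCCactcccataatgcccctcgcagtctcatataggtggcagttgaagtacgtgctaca
Mbnl2 upstream window, chr14:120275419-120275668, + strand: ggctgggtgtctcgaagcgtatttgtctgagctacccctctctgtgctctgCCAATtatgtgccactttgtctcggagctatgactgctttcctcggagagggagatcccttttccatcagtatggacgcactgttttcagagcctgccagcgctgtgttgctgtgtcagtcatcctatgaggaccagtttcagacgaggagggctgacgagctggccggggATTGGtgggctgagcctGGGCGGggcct
Snrpd3 upstream window, chr10:75517792-75518041, + strand: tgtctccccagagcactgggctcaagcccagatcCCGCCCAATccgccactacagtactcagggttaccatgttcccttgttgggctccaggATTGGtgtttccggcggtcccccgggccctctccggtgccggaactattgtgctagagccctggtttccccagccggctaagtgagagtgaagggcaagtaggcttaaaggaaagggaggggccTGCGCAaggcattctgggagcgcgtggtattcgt

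The Sp/KLF motif lay in 64.5% of the members' windows and in 32.7% of all 32851 windows of the table. The ETS motif lay in 29.0% of the members' windows and 6.91% of all, and the NRF1 motif in 17.7% and 6.43%. The NF-Y motif lay in 45.2% and 33.8%, the CREB motif in 12.9% and 6.47%, and the TATA box in 9.68% and 12.4%. The members' windows were richer in G and C, with a median of 60.4% against 52.4% over all windows, and some windows of 1 gene overlap. Of the printed windows, Srsf10, Sf3b1, Mbnl2 and Snrpd3 held the Sp/KLF motif and Srsf3, Srsf10, Mbnl2 and Snrpd3 the NF-Y motif, so the window of the lower gene shared both with windows of higher ones. The CREB motif and the TATA box were in the Srsf3 window, and the NRF1 motif in that of Snrpd3. A match is a string of letters and not a measured binding site.

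Each gene was represented by its brightest probe set, and counted as detected when the array software called that probe set present on at least 1 array. By this rule 49 of 50 members were detected, all 49 on both arrays, and Mbnl3 was absent by all 3 of its probe sets. Ratios are log2 values, Drd2-/- divided by wild type. By their brightest probe sets the members had a median of -0.00, against -0.07 over all 12588 detected genes, with 24 members above 0 and 25 below, while 42.3% of all detected genes were above 0. That split depended on the scaling: 31 members were above 0 under median centring, 29 under quantile normalization and 32 under intensity-dependent centring, against 51.0%, 35.9% and 48.0% of all detected genes. Of the members 1 was at least 1.5-fold higher and 0 as much lower, against 9.5% of all detected genes that much higher and 3.45% that much lower. Most members gave bright signals, where ratios spread less. Detected genes were divided by signal into 4 bins of equal size. In the brightest bin 36 members had a median of 0.01 and 18 were above 0, against a median of -0.14 and 27.6% above 0 for all genes of that bin. With 1.5-fold as the measure, 0 of those 36 members were higher, against 2.38% of that bin, and 0 were lower, against 0.604%.

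**Figure D1:**
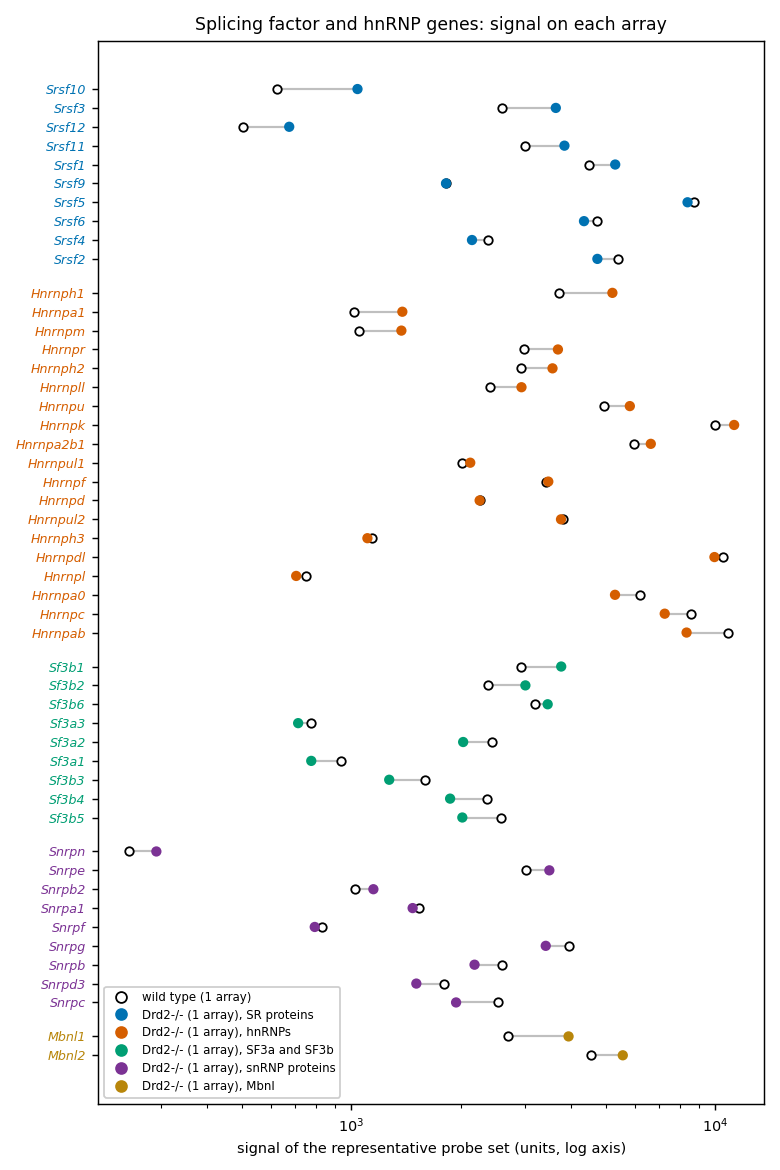
Signal of the representative probe set of each of the 49 detected members on the wild-type array (open circles) and the Drd2-/- array (filled circles, coloured by role), in signal units on a log axis, with genes ordered by ratio within each role. The pairs lie close together: Srsf10, at the top, is the sole gene whose representatives differ by at least 1.5-fold (625 units in wild type, 1039 in Drd2-/-).

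In the authors' deposited table, with signs turned to the sample labels, 9 of the 49 representatives were called increased and 3 decreased. Over all detected genes that table called 8.79% increased and 5.67% decreased. The increased members were Srsf3, Srsf10, Srsf11, Hnrnpa1, Hnrnph1, Hnrnph2, Sf3b1, Mbnl1 and Mbnl2, and the decreased ones Hnrnpab, Sf3a2 and Sf3b3. Such calls set the probe pairs of 1 array against the same pairs on the second and carry no error between animals.

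Among the SR proteins, 5 of 10 representatives were above 0, against 42.3% of all detected genes, and the median was 0.12. Srsf10, which represses splicing in its dephosphorylated form, read 625 units in wild type and 1039 in Drd2-/-, a ratio of 0.73 or 1.66-fold higher. Its other 3 probe sets were also higher, at 0.49, 0.21 and 0.29, so the direction was shared while the size varied. Srsf3, a small SR protein that also takes part in RNA export, read 2589 units in wild type and 3642 in Drd2-/- (0.49). All 5 of its other probe sets were higher as well, from 0.18 to 0.85. Of its 6 probe sets, the authors' deposited table calls 5 increased.

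Srsf11, an SR protein that promotes the inclusion of neuronal microexons, read 2994 units in wild type and 3847 in Drd2-/- by its representative (0.36). Its 3 other probe sets gave 0.39, 1.55 and 1.73. The largest of these came from 133 units in wild type and 441 in Drd2-/-, a 3.31-fold difference, and the next from 113 and 331 units. The direction was thus shared by all 4 probe sets and the size was not. The authors' deposited table calls all 4 increased, with log ratios of 0.3, 0.4, 1.3 and 1.5. Srsf12, an SR-related protein, had 1 probe set and read 503 units in wild type and 674 in Drd2-/- (0.42). The authors' deposited table gives it a log ratio of 0.1, called unchanged.

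Srsf1, a founding SR protein that enhances exon inclusion, read 4487 units in wild type and 5304 in Drd2-/- (0.24). Of its other probe sets, 1 read -0.03 and 4 read between 0.21 and 0.80. A further 1 was present in wild type (80.3 units) but not in Drd2-/- (89.1 units) and has no settled direction. Srsf2, which binds exonic enhancers and also acts in transcription elongation, went the other way by 3 of its 4 probe sets. Its representative read 5397 units in wild type and 4738 in Drd2-/- (-0.19), and the next 2 gave -0.33 and -0.18. The remaining Srsf2 probe set, dim at 85.3 and 180.0 units, gave 1.08 from the signals, but the authors' deposited table gives it -0.1, called unchanged. Srsf5 read 8714 units in wild type and 8381 in Drd2-/- (-0.06), a sign that turned under all 3 rescalings of the arrays. Srsf4, Srsf6 and Srsf9 lay between -0.15 and -0.00 by their representatives.

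The hnRNPs held 19 detected members with a median of 0.08 and none 1.5-fold apart by the representative. Of these 11 were above 0, against 42.3% of all detected genes. Hnrnph1, which binds runs of G and regulates nearby exons, read 3706 units in wild type and 5210.3 in Drd2-/- (0.49), and its second probe set 133 and 224 units (0.76). The authors' deposited table calls both increased. Hnrnpa1, a classic exon silencer, read 1017 units in wild type and 1379.5 in Drd2-/- (0.44), and its others gave 0.97 and 0.54. The first of those 2 ends in _x_at, a suffix for probes that can match other transcripts. Hnrnpm read 1048 units in wild type and 1371 in Drd2-/- (0.39) and Hnrnph2 2921 and 3567 (0.29), each by a single probe set.

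Hnrnpr, which is involved in RNA transport in axons, read 2976 units in wild type and 3692 in Drd2-/- (0.31). Its 4 other probe sets lay between 0.09 and 0.86. The authors' deposited table gives -0.2 for the one at 0.09. The nuclear scaffold protein gene Hnrnpu repeated the pattern of Srsf11. Its 3 brighter probe sets gave 0.23, 0.28 and 0.45, while the 2 dimmer ones gave 1.14 (235 units in wild type, 520.0 in Drd2-/-) and 1.15 (152 and 339 units). Hnrnpa2b1, which carries messages into neuronal processes, showed a split of the same kind. Its brightest probe set read 5962 units in wild type and 6643 in Drd2-/- (0.16), and the other 3 gave 0.73, 0.78 and 0.75. By signal every probe set of these 3 genes was higher in Drd2-/-, but the size depended on the probe set. Hnrnpu and Hnrnpa2b1 were picked for description with their values known.

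Lower hnRNP readings were small. Hnrnpab, which binds RNA and single-stranded DNA, read 10797 units in wild type and 8330.0 in Drd2-/-, a ratio of -0.37 and the lowest of the hnRNP representatives. Of its 6 other detected probe sets 5 lay between -0.25 and -0.02 and 1, at 57.3 and 63.3 units, gave 0.14. Hnrnpdl, a relative of Hnrnpd, read 10498 units in wild type and 9936 in Drd2-/- (-0.08), with its 6 other probe sets between -0.13 and 0.59. Hnrnpd, a binder of AU-rich elements that promotes RNA decay, read 2252 and 2249.6 units (-0.00), but its 2 other probe sets gave 0.62 and 0.83. Hnrnpk, a binder of C-rich RNA, lay between -0.18 and 0.35 over 4 probe sets, at 9975 units in wild type and 11254 in Drd2-/- by the representative (0.17). Hnrnpf, a relative of Hnrnph1, read 0.02 by its representative and -0.42 by another probe set, at 820.5 units in wild type and 613 in Drd2-/-, the lowest ratio of any hnRNP probe set. The signs of Hnrnpd and Hnrnpdl therefore depended on which probe set was read.

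**Figure D2:**
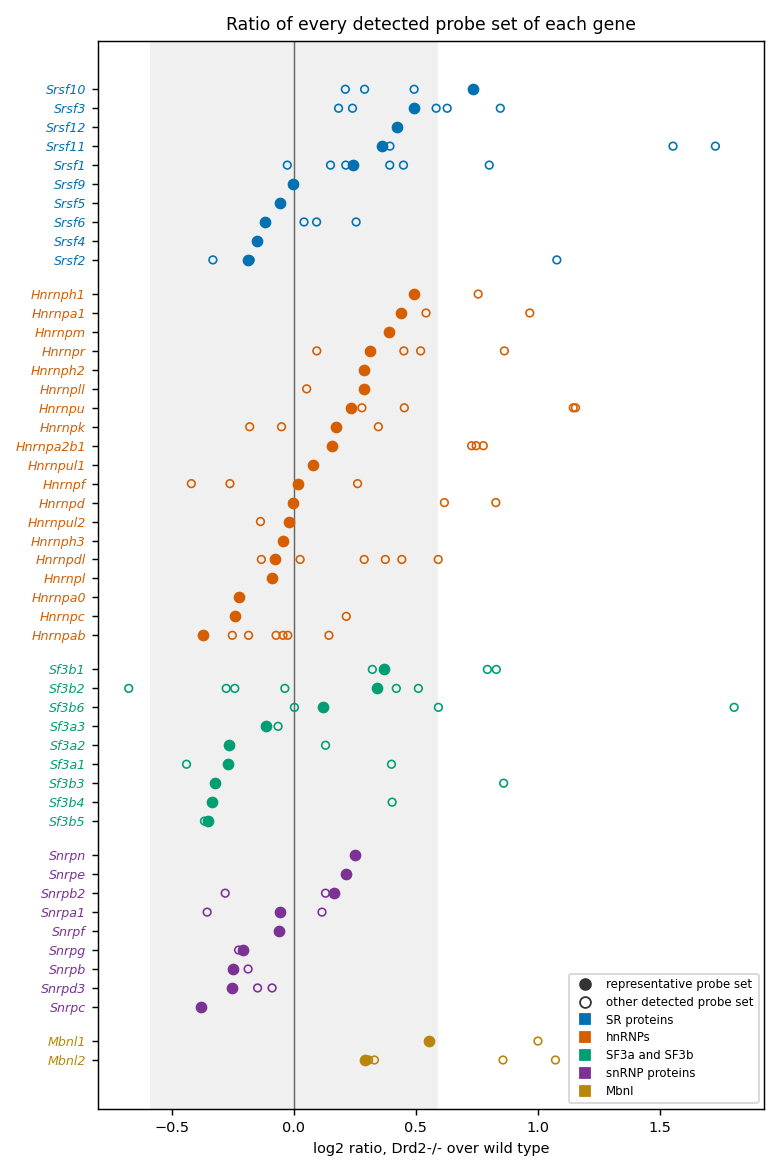
Log2 ratio, Drd2-/- over wild type, for each detected probe set of the 49 detected members, grouped by role, with filled circles for the representative and open circles for the others. The grey band marks ratios within 1.5-fold. Most filled circles lie inside the band, while open circles of Srsf11, Hnrnpu, Hnrnpa2b1 and Mbnl2 extend to the right, and the snRNP proteins stay inside it.

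Genes of the U2 complexes SF3a and SF3b had a median of -0.27 over 9 members by their representatives, with 3 (33.3%) above 0. All detected genes had a median of -0.07 and 42.3% above 0, and those of the brightest bin -0.14 and 27.6%. Over their 28 detected probe sets the median was 0.06. Of these, 5 (17.9%) were at least 1.5-fold higher and 1 (3.57%) as much lower, shares near the 14.6% and 3.4% of all detected probe sets. Sf3b1, the subunit that clamps the branch point helix, was higher by every probe set. It read 2921 units in wild type and 3769 in Drd2-/- (0.37), its other 3 probe sets gave 0.32, 0.83 and 0.79, and the authors' deposited table calls all 4 increased.

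Sf3b5 read 2570.3 units in wild type and 2016 in Drd2-/- (-0.35), and its second detected probe set gave -0.37. Sf3b4 read 2352 units in wild type and 1866 in Drd2-/- (-0.33), but its second probe set gave 0.40. Sf3b3 split further, with 1589 units in wild type and 1269.6 in Drd2-/- by the representative (-0.32) and 244 and 442 units by the other (0.86). The authors' deposited table calls the first of these Sf3b3 probe sets decreased and the second increased. Sf3a1 gave -0.27, -0.44 and 0.40, from 936 units in wild type and 775 in Drd2-/- for the brightest. In Sf3b3, Sf3b4 and Sf3a1 the probe set above 0 was thus not the representative.

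Sf3b2 had no settled direction. Its representative ends in _x_at and read 2370.3 units in wild type and 3005 in Drd2-/- (0.34), whereas the next probe set read 2697 and 2226 units (-0.28). Its 5 further probe sets ran from -0.68 to 0.51, and without probe sets ending in _s_at or _x_at the gene read -0.28. Sf3b6, whose protein touches the branch point adenosine, read 3186 units in wild type and 3459.6 in Drd2-/- (0.12), and its second 2882 and 2887 units (0.00). A further probe set gave 0.59. The last gave 1.80, from 5.9 units, called absent, in wild type and 20.6, called present, in Drd2-/-. All 4 were thus above 0 by signal, the second barely. The authors' deposited table gives the first 2 a log ratio of -0.1, the third 0.1 and the last 1.3, and calls all 4 unchanged. Its limits for the last are 0.5 and 2.2. Sf3a2 and Sf3a3 read -0.27 and -0.11 by their representatives.

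The snRNP proteins had a median of -0.06 over 9 genes, with 3 (33.3%) above 0. All detected genes had a median of -0.07 and 42.3% above 0. Those of the brightest bin had -0.14 and 27.6%, and those of the next bin -0.10 and 36.6%. The 17 detected probe sets of the snRNP proteins all lay within 1.5-fold, from -0.38 to 0.25. Snrpc, the U1-C protein of the 5′ splice site particle, read 2526 units in wild type and 1938 in Drd2-/- (-0.38) by 1 detected probe set. The Sm ring genes Snrpb, Snrpd3 and Snrpg were lower by every detected probe set. Snrpb read 2587 units in wild type and 2178 in Drd2-/- (-0.25), with -0.19 by its second probe set. Snrpd3 read 1796 and 1507 units (-0.25), with -0.09 and -0.15 by its others, and Snrpg 3948 and 3418 units (-0.21), with -0.23. Snrpe, of the same ring, went the other way at 3018 units in wild type and 3496 in Drd2-/- (0.21). The authors' deposited table calls every snRNP representative unchanged. Snrpn, the imprinted gene of the brain form of SmB, read 244 units in wild type and 291 in Drd2-/- (0.25) by its sole probe set paired with it alone, and -0.2 in the authors' deposited table. The median of the group turned just above 0, to at most 0.01, under median centring and under intensity-dependent centring.

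Both detected muscleblind-like genes read higher by every detected probe set. Mbnl1 read 2688 units in wild type and 3948 in Drd2-/- (0.55). Its other detected probe set was dim, at 16.4 units, called absent, in wild type and 32.8, called present, in Drd2-/-. The authors' deposited table gives that probe set a log ratio of 0.8, with limits of -0.6 and 2.2, and calls it unchanged. Mbnl2, the main family member in adult brain, read 4546 units in wild type and 5564 in Drd2-/- (0.29). Its second brightest probe set read 3536 and 6404 units (0.86), and the 3 others gave 0.31, 1.07 and 0.33. For the one at 1.07 the authors' deposited table gives a log ratio of 0.5, with limits of 0.1 and 0.9. The authors' deposited table calls increased 1 of the 2 detected Mbnl1 probe sets and 3 of the 5 of Mbnl2. As in Srsf11 and Hnrnpu, the direction was shared and the size was not.

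Read over all 141 detected probe sets, the members leaned higher, with a median of 0.21 against -0.01 for all 23484 detected probe sets paired with 1 gene. Of these 141, 26 were at least 1.5-fold higher and 1 as much lower, which is 18.4% and 0.709%, against 14.6% and 3.4% of all. Above 0 were 89 of the 141, against 49.4% of all. Dim probe sets leaned higher on the whole array, where the wild-type array had a median signal of 104.3 units over all probe sets and the Drd2-/- array of 132.6, and the part of this in the members' ratios was not tested. The members were therefore set beside probe sets of like signal, again in 4 bins. In the brightest bin 83 member probe sets had a median of 0.12 and 8 were at least 1.5-fold higher, against -0.12 and 3.36% for all. In the next bin 31 had a median of 0.09, against -0.06, with 6 that much higher, against 8.04%. The bin below held 14 with a median of 0.79, against 0.05, of which 8 were that much higher, against 15.1%. The dimmest bin held 13 with a median of 0.42, against 0.28, of which 4 were that much higher, against 31.8%. Probe sets of 1 gene share their RNA and are not independent.

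**Figure D3:**
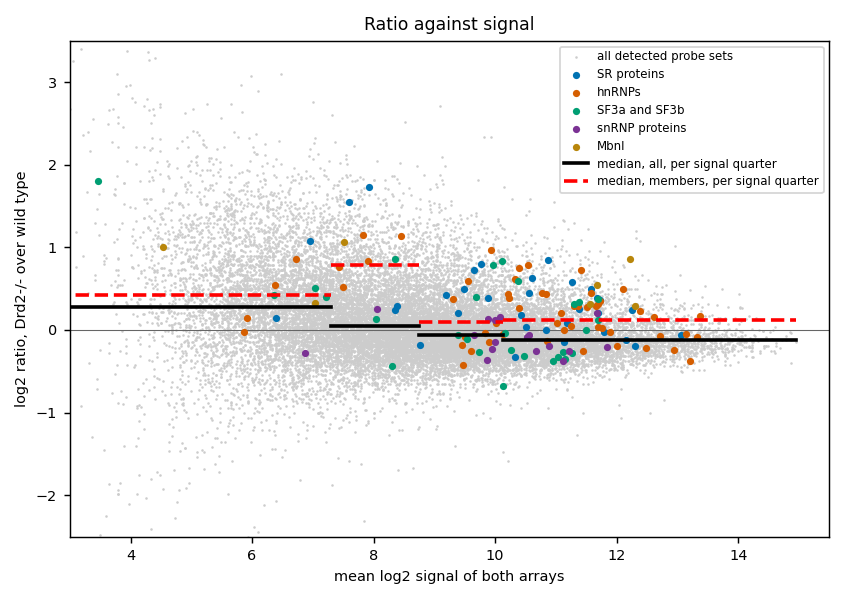
Log2 ratio, Drd2-/- over wild type, against the mean log2 signal of both arrays for all detected probe sets (grey) and the 141 of the members (coloured by role). Black lines give the median of all probe sets in each signal bin and dashed red lines that of the members; 53 grey points lie outside the axes. The red line is above the black one in each of the 4 bins, by the widest margin in the second dimmest.

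The probe sets of a gene were compared with one another. Of 35 members with at least 2 detected probe sets, 13 (37.1%) read higher by all and 6 (17.1%) lower by all. The other 16 (45.7%) had probe sets on both sides of 0. Over all 6074 such genes 27.8% were higher by all, 27.8% lower by all and 44.3% on both sides, a share near that of the members. The 13 held 3 SR protein, 6 hnRNP, 2 SF3 and 2 Mbnl genes, while 3 of the 6 lower ones were snRNP protein genes. Of the 92 member probe sets other than the representatives, 63 read above their own representative, against 60.2% over all genes, and the median difference was 0.16 for members and 0.08 for all. Of those 92, 25 were at least 1.5-fold higher and 1 as much lower, against 20.4% and 3.34% of such probe sets over all genes.

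The design class in the deposited probe set description went with the ratio as well. Among members, 35 probe sets of the class FL+Stack, built on full-length messages, had a median of -0.06, against -0.12 for all detected probe sets of that class. The 72 of the class Stack had a median of 0.30, against -0.01, and the 29 of the class ConsEnd, taken from the end of a consensus sequence, 0.25, against 0.18. Signal differs between these classes too, and the part of either in the ratios was not tested.

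Other genes of the pathway were read from lists chosen by function. SR protein kinases and SR-related proteins were mostly higher: 19 of 23 detected genes were above 0, the median was 0.32, and 6 were at least 1.5-fold higher and 0 as much lower. Over all detected genes 42.3% were above 0, 9.5% that much higher and 3.45% that much lower. Luc7l3, an SR-related partner of the U1 particle, read 1208 units in wild type and 2631 in Drd2-/- (1.12), with both other probe sets higher. Bclaf1, an SR-related RNA-processing protein, read 1002 and 2090.2 units (1.06) and Pnisr, an SR-related nuclear speckle protein, 1120.1 and 2324 units (1.05). Their other detected probe sets, 3 for Bclaf1 and 6 for Pnisr, were all higher. The median of this list was between 0.26 and 0.43 under the 3 rescalings.

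Other core spliceosome proteins had a median of -0.16 over 39 genes, with 11 (28.2%) above 0. All detected genes had a median of -0.07 and 42.3% above 0, and those of the brightest bin -0.14 and 27.6%. The list was not divided by signal. In that list 1 gene was at least 1.5-fold higher and 0 as much lower, against 9.5% and 3.45% of all detected genes, and under quantile normalization 0 were higher. The gene was Prpf39, a U1-associated factor, at 231 units in wild type and 374 in Drd2-/- (0.70). Eftud2, a GTPase of the U5 particle, read 4292 and 2906 units (-0.56), with -0.30 and -0.04 by its other detected probe sets. The authors' deposited table gives its representative -0.3, called decreased. Lsm4, of the U6-associated ring, read 2629 and 1901 units (-0.47). Factors of snRNP assembly had a median of -0.10 over 11 genes, none 1.5-fold apart. Gemin2 read 246 units in wild type and 183 in Drd2-/- (-0.42), Smn1, the gene of the SMN protein, 759.9 and 577 (-0.40) and the arginine methyltransferase gene Prmt5 1843 and 1491 (-0.31).

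Other splicing regulators and RNA-binding proteins had a median of 0.03 over 35 detected genes, with 4 (11.4%) at least 1.5-fold higher and 1 (2.86%) lower, shares near the 9.5% and 3.45% of all detected genes. The lower gene was Elavl4, at -0.61, with 0.1 in the authors' deposited table, and the count lower was 0 under median and intensity-dependent centring and 2 under quantile normalization. Taf15, an RNA-binding protein, read 103 and 292 units, 2.82-fold higher in Drd2-/-, with a ratio of 0.50 by its other probe set. Matr3, a nuclear matrix protein that binds RNA, read 3659 and 7750.5 units (1.08), with 3 of 3 others higher, and Ptbp3, of the polypyrimidine tract-binding family, 279 and 551 units (0.98). Of 7 detected exon junction and nonsense-mediated decay genes, 2 were at least 1.5-fold higher: Upf2 at 378 units in wild type and 748 in Drd2-/- (0.98) and the kinase gene Smg1 at 481 and 903 (0.91). The 5 others were below 0 by their representatives, with Rbm8a lowest at -0.25. A further detected probe set gave 0.90 for Smg6, 0.27 for Smg5 and -0.26 for Rbm8a.

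**Figure D4:**
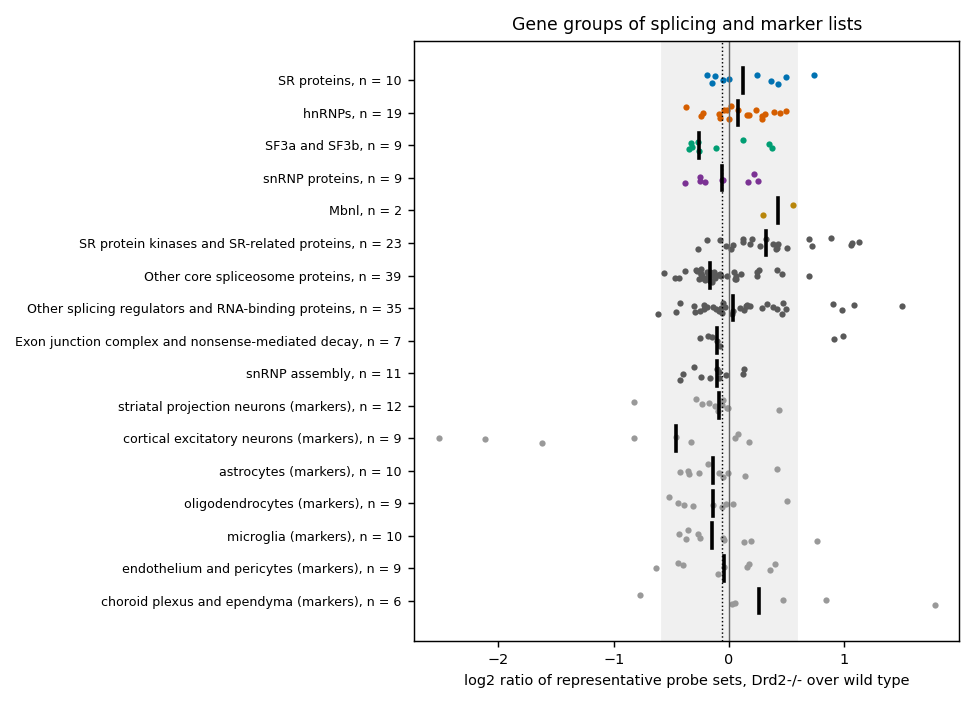
Log2 ratio, Drd2-/- over wild type, of the representative probe sets of detected genes, by role group of the members, by other splicing lists and by cell type marker lists, with a bar at each median and a dotted line at the median of all detected genes (-0.07). The grey band marks ratios within 1.5-fold. SR-related proteins sit furthest right of the larger splicing lists (median 0.32), and cortical neuron markers furthest left (median -0.46).

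The mean signal after trimming was 500.0 units on each array, while the medians differed as given above. Markers of striatal projection neurons were detected for 12 of 12 measured genes (median -0.09), with summed signals of 133268 units in wild type and 129566 in Drd2-/-. Of these 1, Pdyn, was at least 1.5-fold lower, at 808 units in wild type and 457 in Drd2-/- (-0.82). Over all detected genes 3.45% were that much lower. The authors' deposited table gives Pdyn -0.5, called unchanged. Of 11 measured cortical excitatory neuron markers 9 were detected and 4 of them were at least 1.5-fold lower in Drd2-/- (median -0.46). These were Neurod6 (-2.51), Slc17a7 (-1.62), Rtn4rl2 (-0.82) and Tbr1, which read 152.5 units in wild type and 35.2, called absent, in Drd2-/-. None of the 11 was at 0, and their summed signals, 14696.5 and 15014 units, came mostly from Lamp5, Nrgn and Mef2c, at ratios of 0.17, 0.08 and 0.05. Cux2 and Emx1 of that list were present on neither array. Medians of astrocyte, oligodendrocyte, microglia and endothelial markers lay between -0.15 and -0.04. Of 9 measured choroid plexus and ependymal markers 6 were detected (median 0.26, or 0.04 with genes present on 1 array at their bounds and 0.04 under quantile normalization). Their summed signals were 4174 units in wild type and 6532 in Drd2-/-, mostly from Ttr, the transthyretin gene, at 2985 and 5348 units. Of the 6 detected, 5 were above 0, against 42.3% of all detected genes. The other, Foxj1, read 147.7 units in wild type and 86.6 in Drd2-/- (-0.77), and -0.4, called unchanged, in the authors' deposited table. The part of tissue composition in the members' ratios was not tested, and in a tissue sample fewer cells and less RNA per cell cannot be told apart.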

How the data were processed

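Per the labels, biotin-labelled cRNA was made by the standard Affymetrix method from Trizol-extracted total RNA of hand-dissected striatum. The authors deposited 1 linear signal intensity per probe set and array, scaled per array per the file headers, with detection calls, and a comparison table with log2 ratios, their limits and change calls. Software and settings are not given in the sources used here. The signals of the comparison table equalled the sample values for all 45101 probe sets under opposite genotype names, and at 91 under the same name. Calls were tied to arrays by these signals, genotypes were taken from the sample labels, and the authors' log ratios were turned accordingly.

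Of 45101 probe sets, 64 were controls, the platform annotation listed 1 gene for 34945, several for 932 and none for 9160. All 50 member symbols matched RefSeq gene numbers of GRCm38.p6. Signals below 0.1 were set to 0.1 before logs. A single array per genotype allows no test, SD or p-value: members are described by counts at 1.5-fold and medians beside all detected genes, and the number of arrays limits the precision. Values were computed with Python 3.11.15, pandas 2.3.3 and statsmodels 0.14.6, tested on simulated data. A probe set present on 1 array gives a bound, set against the higher of its own absent signal and the lowest present signal of that array (5 units in wild type, 5.9 in Drd2-/-). Where several members were named, these were the members past 1.5-fold, the 6 furthest from 0 and the 2 brightest of each role, those with probe sets on both sides of 0 and 1 of them past 1.5-fold, and up to 3 genes of each other list; any other detected member named was picked with its values known. The members, lists and measures were chosen with earlier results of these data known. Alternatives were median centring, quantile normalization, intensity-dependent centring (lowess, span 0.2), 32 units added, stricter and no detection filters, other probe set choices, a 2-fold measure and the authors' log ratios.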

Additional observations from a re-analysis of the deposited data

Results flagged for a closer look

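The members were read from probe sets paired with 1 gene, which leaves out 16 probe sets paired with several genes of which 1 has a member symbol. Of these, 15 were detected, with a median ratio of 0.27, 9 above 0 and 6 below. Of all detected probe sets paired with 1 gene, 49.4% were above 0. The one of the 15 with the highest wild-type signal was lower, at 17008.5 units in wild type and 13034 in Drd2-/- (-0.38). Signals at least 1.5-fold above the wild-type control array appeared in 3 of the 15, each paired with 2 genes. These were 1 at 0.83 (1498 units in wild type, 2666 in Drd2-/-), 1 at 0.68 (2025 and 3234 units) and 1 at 0.60 (922.5 and 1402 units). The authors' deposited table gives them 0.9, 0.5 and 0.6. A further 1 of the 15, paired with 3 genes, was that much lower at -0.80, and -0.4 in the authors' deposited table. These counts are 20% higher and 6.67% lower, against 14.6% and 3.4% of all detected probe sets paired with 1 gene. The shares over all probe sets paired with several genes were not counted. Which of the paired genes gave each signal cannot be told from these arrays.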

How the results depend on the processing

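No paired analysis was possible because each genotype has 1 array, and leaving out a replicate was likewise not possible. The median of the members stayed within 0.1 of its value under the other settings, from -0.00 to 0.07, and moved to 0.11 under intensity-dependent centring. The count of members at least 1.5-fold higher, 1 as reported, was 2 under median centring, quantile normalization, no filter on detection and without _s_at and _x_at probe sets, 4 under intensity-dependent centring and by the authors' deposited log ratio, 5 by the median over probe sets, and 0 at 2-fold. The count of members that much lower was 0 in every setting run. Over probe sets, alternatives chosen after seeing the data gave 22 to 30 of 141 that were at least 1.5-fold higher, against 9.37% to 16.9% of all, and 18 of 103 without _s_at and _x_at probe sets, against 15.2%. They gave 0 (the authors' deposited log ratio) to 2 (quantile normalization) as much lower, against 1.86% and 7.97% of all. Of the 31 members named by the rule given above, 22 kept their sign in every alternative. Members named outside that rule, such as Hnrnpu, Hnrnpf and Srsf6, are not in this count. The medians of the SR proteins, hnRNPs, SF3 and Mbnl groups kept theirs too, and that of the snRNP proteins did not, turning above 0 under median and intensity-dependent centring. The causes were not tested. Dim probe sets and the single array per genotype limit what can be read from any 1 gene.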

Other observations

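Some genes outside the members, chosen after their values were seen, repeated the pattern of agreement over probe sets. Rbm39, an SR-related coactivator of splicing, read 1083 units in wild type and 2025 in Drd2-/- (0.90), and all 10 of its other detected probe sets were higher, from 0.87 to 1.78. Rbm25, a regulator of alternative splicing with an arginine-rich domain, read 791 and 1095 units (0.47), with 5 of 5 others higher, from 0.02 to 2.19. Tra2a, a splicing activator related to the SR proteins, read 1044 and 1397 units (0.42), with 4 of 4 others higher, from 0.64 to 1.67.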
